A study of Mus musculus with 17 samples.

Results

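The nuclear genes for the mitochondrial respiratory chain and ATP synthase were taken from an RNA-seq table of mouse kidney cortex by their symbols. The rule took Nduf genes of the a, b, c, s and v series, Sdha to Sdhd, Uqcr genes, Cox4 to Cox8 genes, Atp5 genes, Cyc1 and Cycs, which gave 89 of the 38293 rows. These were 35 genes of complex I, 4 of complex II, 9 of complex III, 20 of complex IV, 15 of complex V, the electron carrier cytochrome c (Cycs) and 5 others. The 5 others were Atp5s and Atp5sl, which are not subunits of the synthase, and the pseudogenes Atp5k-ps2, Atp5l-ps1 and Atp5l-ps2. Ndufa4 carries a complex I name but belongs to complex IV, so it and its paralog Ndufa4l2 were counted there. A filter that asked for a log2 RPKM above 0 in at least 4 samples left 82 of the 89 genes for testing. Complex IV lost 4 genes, Cox4i2, Cox7b2, Cox8b and Cox8c, and the other 3 lost were the pseudogenes.

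The study asked how loss of CCN2, a matricellular protein also called connective tissue growth factor, changes the kidney soon after ischemia-reperfusion injury (IRI). Male C57BL/6 mice aged 12 to 14 weeks, from lines kept on C57Bl6/J, carried a CCN2 allele that ROSA26CreERT2, a tamoxifen-inducible Cre expressed in most cell types, can delete throughout the body. All mice received 4 injections of corn oil with or without tamoxifen, followed by 14 days of washout, so the agent and the genotype label cannot be told apart. In IRI mice both renal pedicles were clamped for 25 min, in sham mice they were exposed but not clamped, and the cortex was taken 4 h later. The groups were WT sham (wild type, n = 4), WT IRI (wild type, n = 4), CCN2 KO sham (CCN2 knockout, n = 4) and CCN2 KO IRI (CCN2 knockout, n = 5). Which alleles the wild-type mice carried is not given in the labels. Samples are called kidneys below and named by their title codes (33C1 to 33C4 in WT IRI, 33D2 to 33D6 in CCN2 KO IRI, 32B4, 32B5, 33B3 and 33B4 in CCN2 KO sham and the A codes in WT sham). The values are quantile-normalized log2 RPKM, a level per transcript length, whose sequencing depth is unknown.

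Ctgf, which encodes CCN2, did not separate the genotype labels in this table. Its log2 RPKM ran from 3.75 to 5.04 in CCN2 KO IRI and from 3.92 to 5.01 in WT IRI, a mean difference of −0.35 (two-sided exact permutation test, p = 0.318). In sham kidneys it ran from 2.87 to 3.92 under the knockout label and from 2.65 to 4.26 under the wild-type label, a mean difference of −0.28 (exact permutation test, p = 0.571). By qPCR, the study itself reported a significant loss of this transcript in its knockout mice, with injury and without. Those qPCR values were not analysed here. Which exons were deleted is not given in the sources used here, and a value over the whole gene can include reads outside them. Group names are therefore the deposited labels, and every direction between genotypes below rests on them. Proximal tubule markers, which define this tissue, were all expressed, with a mean log2 RPKM of 7.53 to 8.19 per sample over 12 genes.

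Complexes I, III and IV pump protons across the inner mitochondrial membrane as electrons pass from NADH and succinate to oxygen, and complex V uses the proton gradient to make ATP. Complex II feeds electrons from succinate without pumping and is also an enzyme of the citric acid cycle. Proximal tubule cells are rich in mitochondria and depend on this pathway for solute transport, and ischemia stops it by withdrawing oxygen. Apart from the few subunits encoded by mitochondrial DNA, all subunits come from nuclear genes. NRF1 and the ETS factor GABP are known to bind the promoters of many of them.

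Promoter sequences of 6 members described below are shown because they allow the NRF1 and ETS motifs to be seen beside the expression values. They come from RefSeq on GRCm38.p6 and run 5′ to 3′ on the gene's strand over the 100 bases nearest the gene that lie outside its annotated exons. Capitals mark matches to the NRF1 core GCGCANGCG or the ETS motif CCGGAAG on either strand. The first 4 genes were lower and the other two were higher in CCN2 KO IRI than in WT IRI. The spans were chr6:50566570-50566669 (Cycs), chr16:37654454-37654553 (Ndufb4), chr3:51408989-51409088 (Ndufc1) and chr5:115348982-115349081 (Cox6a1), all on the minus strand. Those of the higher genes were chr13:74350281-74350380 on the minus strand (Sdha) and chr10:128083173-128083272 on the plus strand (Atp5b).
Cycs: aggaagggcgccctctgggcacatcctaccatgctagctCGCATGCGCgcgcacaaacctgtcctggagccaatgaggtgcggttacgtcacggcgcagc
Ndufb4: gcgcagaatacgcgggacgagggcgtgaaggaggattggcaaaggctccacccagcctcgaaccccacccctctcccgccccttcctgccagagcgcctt
Ndufc1: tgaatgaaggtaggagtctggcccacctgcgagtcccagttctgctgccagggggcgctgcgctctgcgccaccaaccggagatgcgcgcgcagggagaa
Cox6a1: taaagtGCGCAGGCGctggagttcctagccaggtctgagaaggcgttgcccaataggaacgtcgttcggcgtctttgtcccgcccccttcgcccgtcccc
Sdha: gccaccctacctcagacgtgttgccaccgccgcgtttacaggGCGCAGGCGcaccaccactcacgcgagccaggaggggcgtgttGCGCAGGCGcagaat
Atp5b: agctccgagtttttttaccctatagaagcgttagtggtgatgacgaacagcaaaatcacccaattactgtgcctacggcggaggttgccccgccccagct

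Promoters of 67 members were matched in the RefSeq table, each over 250 bases before and 50 after the start. The NRF1 core stood in 21 of the 67 genes (31.3%), against 7.03% of all genes in that table. By complex it stood in 7 of 13 genes of complex V, 8 of 31 of complex I and 1 of 14 of complex IV. The ETS motif stood in 16 of the 67 genes (23.9%), against 9.93% of all genes. The core hypoxia-response motif ACGTG stood in 17 (25.4%, against 21.8%) and the E-box CACGTG, which contains it, in 5 (7.46%, against 8.09%). Members lower in CCN2 KO IRI than in WT IRI held the NRF1 core in 4 of 17 promoters and the ETS motif in 1 of 17. Members that did not pass that test held them in 16 and 15 of 46. The wider windows also hold an NRF1 core in Ndufb4 and an ETS motif in Cox6a1 that lie outside the 100 bases printed. A match describes these windows only, and binding was not measured.

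Some subunits of complexes I, III, IV and V and Cycs were lower in injured kidneys labelled CCN2 KO than in those labelled WT, and Sdha, Atp5a1 and Atp5b were higher. Of the 82 genes tested 20 were lower and 3 higher in CCN2 KO IRI (limma, adjusted p below 0.05), while 5.07% of all 12608 genes tested were lower and 7.19% higher. That is 24.4% and 3.66% of the members. The median log2 difference was −0.30 over the members, 67 of which had a negative difference, and 0.02 over all genes tested. By complex, 12 of 35 genes of complex I were lower (median −0.31), 1 of 9 of complex III (−0.30), 5 of 16 of complex IV (−0.33), 1 of 15 of complex V (−0.24) and Cycs. The higher genes were Sdha of complex II, whose 4 genes had a median of 0.14, and Atp5a1 and Atp5b of complex V. Values of the 2 groups did not overlap in 19 members that were lower (23.2%), against 7.24% of all genes, and in 7 that were higher (8.54%), against 10.1% of all genes.

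The members are short, and short transcripts as a class stood lower in CCN2 KO IRI. Their representative mRNA had a median length of 863 bases, against 2793 over the genes tested, and 68 of 82 fell in the shortest quartile, of at most 1668 bases. The median log2 difference of all genes was −0.21 in that quartile and 0.13 in the longest quartile. Sample medians of the shortest quartile ran from 2.36 to 2.51 in CCN2 KO IRI and from 2.58 to 2.75 in WT IRI, without overlap. Among the 82 members the difference followed coding length (Spearman's rho = 0.74) and mRNA length (rho = 0.49) over genes of the same 9 libraries, which are no replicates of each other. With values centred within bins of mRNA length, a step chosen after seeing the data, 4 members were lower and 8 higher, and the members' median was −0.02. Of all 12478 genes with a length, 446 (3.57%) were lower and 677 higher. The sign of the difference changed in 22 of the 82 members under this centring. Of the 23 calls on the deposited values 7 remained, namely Ndufb2, Ndufb4, Ndufc1, Cycs, Sdha, Atp5a1 and Atp5b. Cytosolic ribosomal proteins, another set of short and abundant transcripts, had a median of −0.29, with 9 of 80 lower at the same limma threshold.

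**Figure D1:**
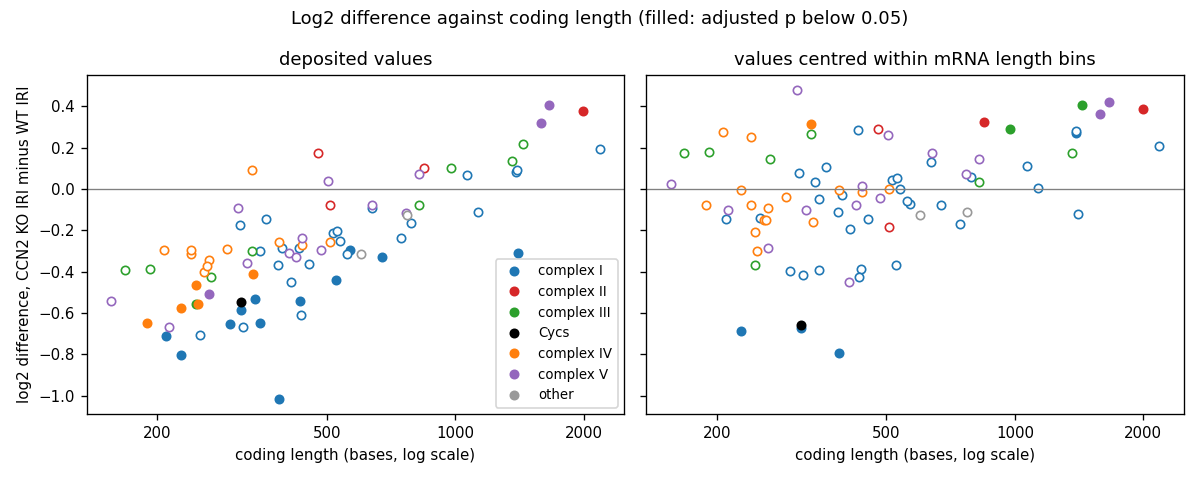
Each point is 1 of the 82 tested genes, with its coding length in bases on a log axis and its log2 difference between CCN2 KO IRI (n = 5) and WT IRI (n = 4) on the vertical axis, from the deposited values on the left and after centring within mRNA length bins on the right. Filled points passed limma's adjusted p of 0.05, and on the right only 4 filled points lie below zero and 8 above.

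In complex I the accessory subunits, which surround the catalytic core, carried nearly all of the lower calls. Of 28 accessory genes 11 were lower, with a median of −0.37. Of the 7 core genes, which hold the NADH site, the iron-sulfur clusters and the quinone site, 1 was lower and the median was −0.09. The 2 classes also differ in coding length, from 210 to 1404 bases in accessory genes and from 636 to 2181 in core genes. The part of length in this split was not tested. After centring by mRNA length only Ndufb2, Ndufb4 and Ndufc1 of the lower calls in complex I remained. The largest difference on the deposited values was that of Ndufb4, an accessory subunit of the membrane arm. It measured 3.07, 3.06, 3.33, 2.79 and 3.54 in CCN2 KO IRI and 4.40, 3.70, 4.16 and 4.42 in WT IRI. The groups did not overlap, and CCN2 KO IRI also lay below both sham groups, of which WT sham ran from 4.16 to 4.74 and CCN2 KO sham from 3.85 to 4.87. The log2 difference of −1.02 ± 0.20 (SE) is 2.02-fold (limma, adjusted p = 0.00818), and it passed without any 1 of the 9 injured kidneys. Ndufc1, a further accessory subunit of the membrane arm, measured 3.69, 3.40, 3.69, 3.93 and 3.90 in CCN2 KO IRI and 4.68, 4.19, 4.70 and 4.53 in WT IRI. Its groups did not overlap either, with a difference of −0.80 ± 0.17 (SE; limma, adjusted p = 0.00942) that also passed without any 1 kidney.

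The smaller differences of Ndufa1 and Ndufa7 depended more on single kidneys than those of Ndufb4 and Ndufc1. Ndufa1, an accessory membrane subunit, differed by −0.71 ± 0.21 (SE; limma, adjusted p = 0.0350), and lost the call without 33C1, 33C3, 33C4, 33D3 or 33D4, where the adjusted p reached 0.117. Ndufa7 differed by −0.53 ± 0.13 (SE; adjusted p = 0.0167) and lost the call only without 33C4, with an adjusted p of 0.0673, but its difference was 0.04 after centring by mRNA length. Among the core subunits Ndufv1, which binds NADH, and Ndufs1, which carries iron-sulfur clusters, differed by 0.09 and 0.19 and did not pass, with 95% confidence intervals from −0.06 to 0.24 and from −0.05 to 0.44. Ndufb9, the complex I gene with the highest mean level, went from 8.03 ± 0.16 (SD, n = 4) in WT IRI to 7.78 ± 0.16 (SD, n = 5) and did not pass either. Ndufab1, a complex I subunit outside the naming rule, differed by −0.27 and did not pass.

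Complex II was the only complex whose tested genes had a median above 0 in this comparison. Sdha, the flavoprotein that oxidizes succinate, measured 7.74, 7.52, 7.63, 7.55 and 7.64 in CCN2 KO IRI and 7.32, 7.44, 7.04 and 7.15 in WT IRI. Every CCN2 KO IRI kidney lay above every WT IRI kidney, with a difference of 0.38 ± 0.10 (SE; limma, adjusted p = 0.0260). The call was lost without 33C3, 33C4, 33D2, 33D4 or 33D6, at an adjusted p of up to 0.0974. In the sham groups Sdha differed by 0.30 in the same direction, which did not pass (limma, adjusted p = 0.278; 95% confidence interval from 0.08 to 0.53). The iron-sulfur subunit Sdhb and the membrane anchors Sdhc and Sdhd differed by 0.10, −0.07 and 0.17, and none passed.

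In complex III 1 of 9 genes was lower. Uqcrq, a small accessory subunit, measured 5.84, 5.96, 5.63, 5.95 and 5.85 in CCN2 KO IRI and 6.21, 6.19, 6.68 and 6.54 in WT IRI, without overlap. Its difference was −0.56 ± 0.13 (SE; limma, adjusted p = 0.0167), and the call was lost without 33C3 or 33C4, at an adjusted p of up to 0.0701. The large core protein Uqcrc1, the complex III gene with the highest mean level, measured 8.14, 8.17, 8.15, 8.07 and 8.05 in CCN2 KO IRI and 7.80, 7.92, 7.91 and 7.96 in WT IRI. These values did not overlap, yet the difference of 0.22 missed the threshold (limma, adjusted p = 0.0791). The redox-active subunits cytochrome c1 (Cyc1) and the Rieske protein (Uqcrfs1) differed by 0.10 and −0.08 and did not pass. Cycs, which carries electrons from complex III to complex IV and also triggers apoptosis when released to the cytosol, measured 3.37, 3.05, 3.26, 3.34 and 3.22 in CCN2 KO IRI. It measured 3.62, 3.67, 3.88 and 4.02 in WT IRI, above every CCN2 KO IRI kidney. The difference of −0.55 ± 0.12 (SE; limma, adjusted p = 0.00986) passed without any 1 kidney and after centring by mRNA length (−0.66). The Cycs mRNA is 3123 bases long, longer than most members, around a coding part of 315 bases.

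In complex IV all 11 of the ubiquitous subunits had a negative difference, and 5 of them passed. These were Cox6a1, Cox6c, Cox7a2, Cox7c and Ndufa4, with differences from −0.65 (Cox7c) to −0.41 (Cox6a1). The calls for Cox7c, Cox7a2 and Cox6c were lost without any 1 of 6, 6 and 7 of the 9 kidneys, 33C1, 33C3 and 33C4 among them, at an adjusted p of up to 0.0974, 0.118 and 0.136. Ndufa4 measured 8.61, 8.55, 8.70, 8.58 and 8.57 in CCN2 KO IRI and 8.996, 8.85, 9.28 and 9.14 in WT IRI. The groups did not overlap, and the difference of −0.46 ± 0.10 (SE; limma, adjusted p = 0.0114) passed without any 1 kidney, but not after centring by mRNA length (−0.21, adjusted p = 0.110). Cox6a1 measured 8.97, 8.94, 8.77, 8.94 and 8.90 in CCN2 KO IRI and 9.42, 9.16, 9.38 and 9.30 in WT IRI, again without overlap. The call for Cox6a1 (limma, adjusted p = 0.0291) was lost without 33C1, 33C3, 33C4, 33D4 or 33D6, at an adjusted p of up to 0.0844. Cox4i1 and Cox5a, subunits that enter assembly around the mitochondrially encoded core, differed by −0.26 and −0.27 and did not pass. Cox7a2l, a 7A-related factor of supercomplexes, differed by 0.09.

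In complex V the higher genes belonged to the F1 head. Of its 5 genes Atp5a1 (subunit alpha) and Atp5b (subunit beta, which holds the catalytic sites) were higher, and Atp5e (subunit epsilon) had the lowest difference of the 5, at −0.54, which did not pass. Atp5a1 measured 9.33, 9.04, 9.28, 9.30 and 9.25 in CCN2 KO IRI and 8.89, 9.01, 8.69 and 8.75 in WT IRI, a difference of 0.41 ± 0.11 (SE; limma, adjusted p = 0.0249). Atp5b measured 9.42, 9.35, 9.30, 9.16 and 9.33 against 9.04, 9.14, 8.78 and 9.01, a difference of 0.32 ± 0.10 (SE; limma, adjusted p = 0.0472). Neither pair of groups overlapped, and leaving out single kidneys lost the call for Atp5a1 in 5 of 9 cases and for Atp5b in 7 of 9, among them 33C3, 33C4 and 33D4. The highest adjusted p without 1 kidney was 0.0935 for Atp5a1 and 0.152 for Atp5b. In the sham groups Atp5a1 averaged 9.08 under the CCN2 KO label and 8.80 under the WT label, and Atp5b 9.20 and 9.08. Neither gene passed there. Atp5j2, the small membrane subunit f, was lower in CCN2 KO IRI than in WT IRI by 0.51 ± 0.14. The call for Atp5j2 (limma, adjusted p = 0.0280) was lost without 33C1, 33C3, 33C4, 33D4 or 33D6. The largest negative difference in complex V was that of Atp5k (subunit e), at −0.67, which did not pass. Atp5k measured 4.26 in 33D3 and 5.69 to 5.82 in the other 4 CCN2 KO IRI kidneys. The 3 genes for subunit c of the rotor ring, Atp5g1, Atp5g2 and Atp5g3, differed by −0.31, −0.24 and −0.33 and did not pass, nor did any of the 4 peripheral stalk genes.

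**Figure D2:**
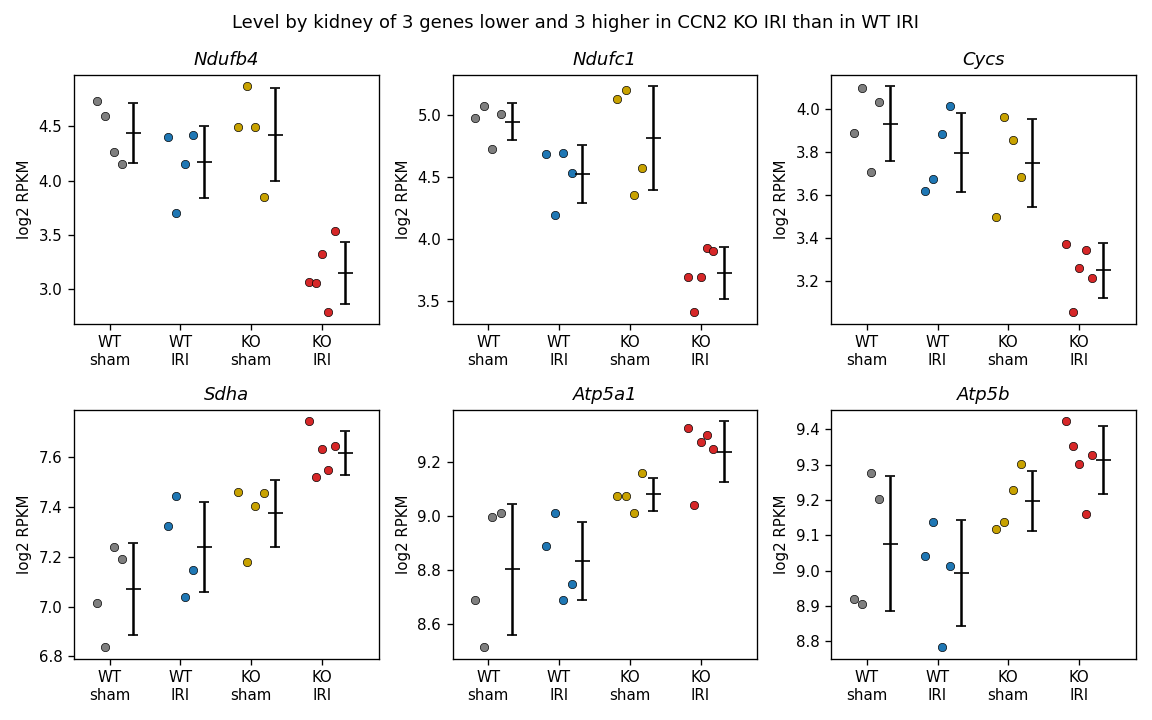
Log2 RPKM of Ndufb4, Ndufc1, Cycs, Sdha, Atp5a1 and Atp5b in each kidney (points), with the mean and SD of the group beside them (n = 4, 4, 4 and 5). The 5 CCN2 KO IRI kidneys lie below all 12 others for Ndufb4, Ndufc1 and Cycs, and above all WT IRI kidneys for Sdha, Atp5a1 and Atp5b.

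The count of member calls moved with single kidneys. Without 1 kidney it ran from 4 (without 33C4) to 34 (without 33C2), and it was 5 without 33C3, 7 without 33D4 or 33D6 and 10 without 33C1. Calls over all genes moved too, from 639 lower and 907 higher with every kidney to 132 and 219 without 33C4. Without 33C2 they were 667 lower and 998 higher. Lower and higher calls were 231 and 368 without 33C3, 362 and 499 without 33D4 and 310 and 439 without 33D6. Without 33C1 they were 355 and 587. Within the samples whose title begins with 33, which hold every IRI kidney, 32 members were lower and 4 higher. Of all 12608 genes tested 1072 (8.50%) were lower and 1472 higher there. Markers of other cell types differed in the same comparison. Higher in CCN2 KO IRI were 5 of 8 markers of the thick ascending limb, 4 of 7 of the distal convoluted tubule, 4 of 8 of endothelium, 4 of 10 of pericytes and fibroblasts and 2 of 12 of the proximal tubule. Of 10 collecting duct markers 1 was lower, Aqp2 (−0.87), 1 of 7 leukocyte markers was higher, and none of 5 podocyte markers passed (median 0.71). Of all genes tested 5.07% were lower and 7.19% higher. The summed RPKM of the thick ascending limb markers, on the log2 scale, ran from 9.46 to 10.5 in CCN2 KO IRI and from 7.996 to 9.01 in WT IRI, and that of the proximal tubule markers from 12.5 to 12.9 and from 12.3 to 12.8. Every marker of the tubule segments, endothelium, pericytes and fibroblasts stood above the floor of the scale in at least 1 kidney of each group. Their part in the members' differences was not tested, and in cortex RNA fewer cells of a type and less RNA per cell cannot be told apart.

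Injury alone was followed by lower levels of some members under the WT label. In WT IRI 22 of 82 members were lower than in WT sham and 0 were higher, while 20.3% of all genes tested were lower and 19.5% higher (limma). That is 26.8% of the members, close to the share of all genes, and at an unadjusted p below 0.05 the counts were 31 lower and 0 higher, against 25.2% and 22.9% of all genes. The median was −0.23 over members and −0.05 over all genes. The lower genes were 11 of complex I, 2 of complex II, 1 of complex III, 2 of complex IV, 4 of complex V and both Atp5s and Atp5sl. Ndufv3, an accessory subunit of the NADH-oxidizing arm, measured 6.64, 6.38, 6.65 and 6.52 in WT sham and 6.01, 5.77, 6.05 and 6.01 in WT IRI. The groups did not overlap, and the difference was −0.58 ± 0.09 (SE; limma, adjusted p = 0.000150). Sdhb measured 7.23, 6.97, 7.12 and 7.09 in WT sham and 6.60, 6.76, 6.78 and 6.82 in WT IRI, a difference of −0.36 ± 0.08 (SE; limma, adjusted p = 0.00122) without overlap. Both passed without any 1 kidney. Atp5sl, which is no synthase subunit, had the lowest adjusted p of all members, measuring 5.65, 5.32, 5.43 and 5.29 in WT sham and 4.49, 4.34, 4.58 and 4.72 in WT IRI (difference −0.89 ± 0.12 SE; limma, adjusted p = 3.87e-05).

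Other members lower in WT IRI by the same test were the core subunits Ndufs3, Ndufs7 and Ndufs8 (−0.27, −0.41 and −0.41), Ndufa11 and Ndufb7 (−0.49 and −0.62), Sdhd (−0.22) and Cyc1 (−0.25). In complexes IV and V they were Cox5b and Cox7a2l (−0.46 and −0.31), Atp5d (−0.42), Atp5g1 (−0.40), Atp5j (−0.38) and Atp5o (−0.32). Cycs differed by −0.14 and did not pass. Of these calls Ndufs7, Ndufs8, Ndufb7, Cox7a2l and Atp5d held without any 1 kidney. The call for Ndufa11 was lost without 33C1 (adjusted p = 0.0521), and those for Cox5b, Atp5g1, Atp5j and Atp5o without 33C1 or 33C2, at an adjusted p of up to 0.0712. Those for Ndufs3, Sdhd and Cyc1 were lost without 33A1 or 33A2, among others, at an adjusted p of up to 0.117. After centring by mRNA length 13 members were lower and 2 higher, 7 of them among the 22, while 20.2% of all genes were lower. Title prefixes 32 and 33, whose meaning the labels do not give, both occur among sham kidneys and only 33 among IRI kidneys. With the prefix as a term 12 members were lower and 0 higher, while 17.6% of all genes were lower, and within prefix 33 the counts were 17 and 1. Without 1 kidney the count ran from 12 (without 33C1) to 22. Of all genes 18.1% were lower within prefix 33 and 17.2% without 33C1.

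Under the CCN2 KO label a larger number of members was lower after injury. In CCN2 KO IRI 54 of 82 members (65.9%) were lower than in CCN2 KO sham and 0 were higher, against 13.2% and 14.3% of all genes tested (limma). At an unadjusted p below 0.05 the counts were 65 lower and 1 higher, against 19.7% and 19.6% of all genes. The median was −0.46 over members and −0.02 over all genes. Lower were 26 of 35 genes of complex I, 1 of 4 of complex II, 4 of 9 of complex III, 11 of 16 of complex IV, 9 of 15 of complex V, Cycs and both Atp5s and Atp5sl. The peripheral stalk genes of complex V, Atp5f1, Atp5h, Atp5j and Atp5o, were all lower, by 0.23 to 0.56. The F1 genes Atp5a1 and Atp5b differed by 0.16 and 0.12 and did not pass. Ndufb4 and Ndufc1 were lower by 1.27 ± 0.20 (SE; limma, adjusted p = 0.000373) and 1.10 ± 0.17 (SE; limma, adjusted p = 0.000265). Ndufs5, a further accessory subunit of complex I, was lower by 0.995. In complex III Uqcrh, the acidic hinge protein that meets cytochrome c, was lower by 0.67 ± 0.17 (SE; limma, adjusted p = 0.00766), Uqcr11 by 0.64 and Uqcrq by 0.47. Sdhc was the 1 lower gene of complex II, by 0.25. In complex V Atp5k, Atp5e and Atp5j2 were lower by 1.06, 0.85 and 0.66. The calls for Ndufs5 and Uqcrq were lost without 32B4 and without 32B5, and those for Atp5k and Uqcr11 without either of these sham kidneys. Reads of Cycs, Atp5k and the Atp5g genes may be shared with close gene copies, and how such reads were counted is not given, so their values are uncertain.

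Here too short transcripts moved together and the sham libraries mattered. The median difference of all genes was −0.28 in the shortest quartile of mRNA lengths and 0.14 in the longest. After centring by mRNA length 24 members were lower and 0 higher, all 24 among the 54, with a members' median of −0.14. Of all 12478 genes with a length, 1250 were lower and 1544 higher under this centring. Among the 24 members were Ndufb4 (−0.96), Ndufc1 (−0.88), Ndufv3 (−0.66) and Cycs (−0.54). With the title prefix as a term 31 members were lower, within prefix 33 the count was 20, and without 32B5, the sham kidney with the highest means of complexes I, III, IV and V, it was 36. In the same order 7.98%, 7.27% and 9.10% of all genes were lower. Markers of other cell types differed in both injury comparisons. Collecting duct markers were lower in 6 of 10 cases in each, and 1, Aqp2, was higher under the WT label (0.84). Under the WT label 5 of 7 markers of the distal convoluted tubule, 5 of 8 of endothelium and 4 of 8 of the thick ascending limb were lower, and 4 of 7 leukocyte markers were higher and 1 lower. Under the CCN2 KO label the distal convoluted tubule had 1 lower, the thick ascending limb 2 lower and leukocytes 2 higher, and no endothelial marker passed. Proximal tubule markers were lower in 2 of 12 cases under the WT label and in 1 under the CCN2 KO label. Pericyte and fibroblast markers were lower in 3 of 10 cases under the WT label and in 0 under the CCN2 KO label. No podocyte marker passed in either. Of all genes 20.3% were lower and 19.5% higher under the WT label, and 13.2% and 14.3% under the CCN2 KO label. The part of these markers in the members' values was not tested.

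**Figure D3:**
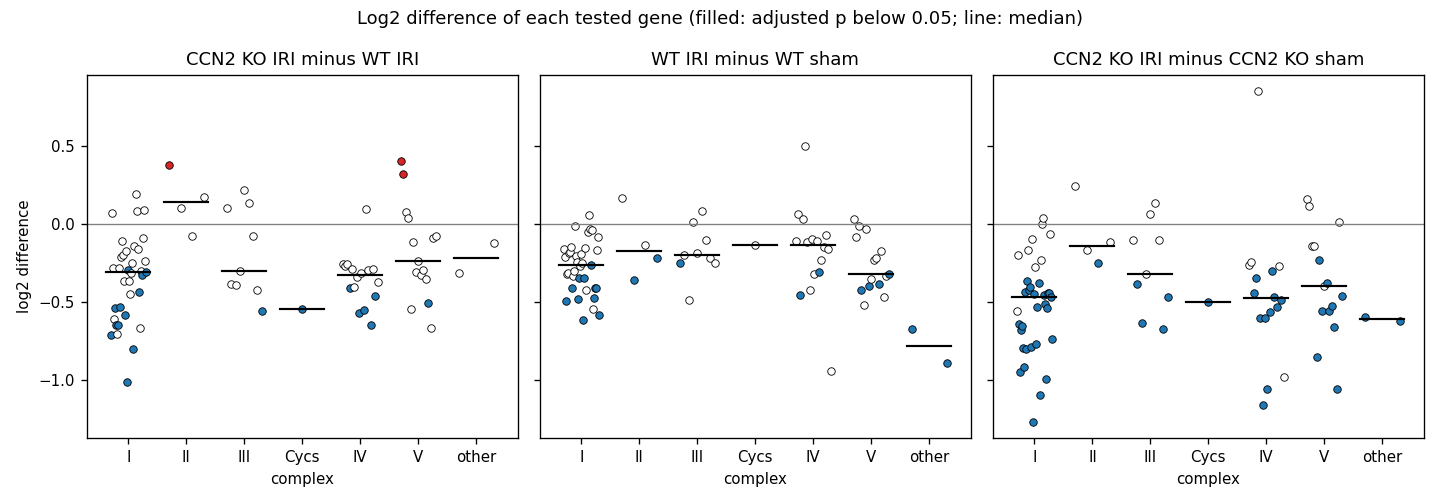
Log2 difference of each of the 82 tested genes, grouped by complex, in the 3 comparisons named above the panels. Filled points passed limma's adjusted p of 0.05 (blue lower, red higher), and the line is the median, which for complex I is −0.31, −0.27 and −0.47 from left to right.

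Both injury comparisons share kidneys with the genotype comparison of injured mice, so agreement between them is not independent. The test of the difference between the responses, which asks whether injury acted unequally under the 2 labels, called 0 of 82 members, with 0.182% of all genes called (limma). At an unadjusted p below 0.05 it gave 12 members with a more negative response under the CCN2 KO label and 2 with a more positive one, against 7.06% and 7.88% of all genes, and each alternative setting of the limma fit also called 0. Ndufb4 came nearest, at −1.001 ± 0.295 (SE; adjusted p = 0.138; 95% confidence interval from −1.62 to −0.38). The difference for Cycs was −0.37 (95% confidence interval from −0.72 to −0.01; adjusted p = 0.322). A larger number of calls under one label is therefore not shown to be a larger response.

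Between the sham groups 0 of 82 members passed and 0 of all 12608 genes (limma). At an unadjusted p below 0.05 the counts were 3 members higher and 7 lower in CCN2 KO sham, against 6.92% and 6.09% of all genes, and each alternative setting of the limma fit also called 0. Ndufb3 had the smallest p, with a difference of −0.42 (95% confidence interval from −0.68 to −0.16; adjusted p = 0.235). The interval for Ndufb4 ran from −0.47 to 0.44 and that for Cycs from −0.44 to 0.08, so with 4 kidneys a group shifts within these intervals were not excluded.

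**Figure D4:**
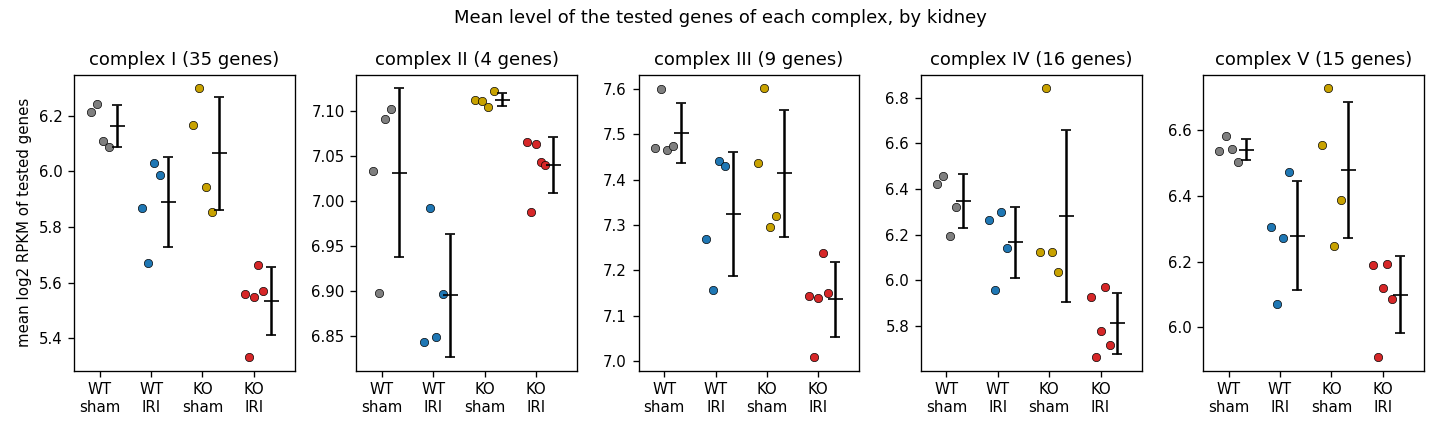
Mean log2 RPKM over the tested genes of each complex in each kidney (points), with the group mean and SD beside them (n = 4, 4, 4 and 5), on axes that do not start at zero. The complex I means of the 5 CCN2 KO IRI kidneys (5.33 to 5.66) lie below those of all other kidneys (5.67 to 6.30), while the complex II means of CCN2 KO IRI lie between 6.99 and 7.07.

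For complex I they ran from 6.09 to 6.24 in WT sham, 5.67 to 6.03 in WT IRI, 5.85 to 6.30 in CCN2 KO sham and 5.33 to 5.66 in CCN2 KO IRI. For complex IV the same ranges were 6.19 to 6.46, 5.96 to 6.30, 6.03 to 6.84 and 5.66 to 5.97, and for complex V 6.50 to 6.58, 6.07 to 6.47, 6.25 to 6.73 and 5.91 to 6.19. Kidney 33D3 had the lowest mean of complexes I, III, IV and V, and 32B5 the highest. For complex II the means ran from 6.90 to 7.10, 6.84 to 6.99, 7.11 to 7.12 and 6.99 to 7.07, in the same order of groups. The members with the highest mean over all 17 kidneys were Cox8a (9.38), Cox6a1 (9.17), Atp5b (9.16) and Atp5a1 (9.004), on the log2 RPKM scale. Cox8a, the common isoform of subunit 8, was 9.16 ± 0.24 (SD, n = 5) in CCN2 KO IRI and 9.46 ± 0.18 (SD, n = 4) in WT IRI, which did not pass.

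Several complex IV subunits have isoforms tied to heart and muscle, testis or low oxygen, and these stayed far below their common partners in cortex. Cox7b2 and Cox8c, known from testis, stood at the floor of the scale (−3.32, an RPKM of 0.1) in all 17 kidneys, and Cox8b, known from heart and muscle, in 15. Cox4i2, the oxygen-responsive isoform of subunit 4, ran from the floor to 0.40. Cox7a1, the heart and muscle isoform of subunit 7A, was the best expressed of these. It measured 2.91, 3.02, 2.61, 3.30 and 3.03 in CCN2 KO IRI and 4.36, 4.57, 3.47 and 3.74 in CCN2 KO sham. Those groups did not overlap, with a difference of −1.06 ± 0.24 (SE; limma, adjusted p = 0.00397), but with only prefix 33 the difference was −0.63 and did not pass (adjusted p = 0.109). Cox6b2 was lower in the same comparison by 1.16 ± 0.32 (SE; limma, adjusted p = 0.0126), a call lost without 32B5 at an adjusted p of 0.0549. Cox6a2 and Ndufa4l2 did not pass in any comparison.

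Ndufa4l2, a paralog of Ndufa4 that is known to be induced by hypoxia in other cells, measured 1.49, 0.97, 1.88 and 1.82 in WT sham and 1.29, 0.88, 0.93 and −0.72 in WT IRI. It measured −0.25, 2.38, 1.15 and 1.53 in CCN2 KO sham and −0.10, −0.19, 0.71, 0.60 and 0.10 in CCN2 KO IRI, so the groups overlapped. The per-sample ratio of each isoform to its partner was compared for 6 pairs in 4 comparisons, of which 23 could be tested. No ratio passed a two-sided exact permutation test after adjustment over the 23. The smallest p was that of Cox7a1 to Cox7a2 between the sham groups, where the log2 ratio was 0.52 higher under the CCN2 KO label (exact p = 0.0286, which is as low as groups of 4 can reach, and adjusted p = 0.548).

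**Figure D5:**
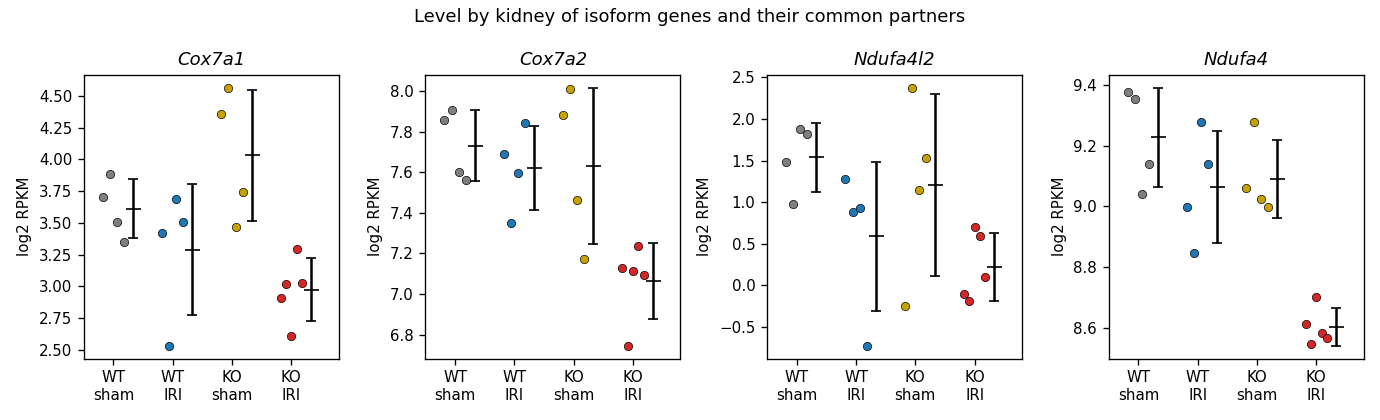
Log2 RPKM of Cox7a1 and its common partner Cox7a2 and of Ndufa4l2 and its partner Ndufa4 in each kidney (points), with group mean and SD (n = 4, 4, 4 and 5), each panel on its own axis. Cox7a1 lies about 4 log2 units below Cox7a2 in every group, and the Ndufa4 values of CCN2 KO IRI lie below those of all other kidneys.

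Genes that work beside the chain were read from lists. For comparison, 5.07% of all genes tested were lower and 7.19% higher in CCN2 KO IRI than in WT IRI. Of 45 tested assembly factors 5 were lower and 2 higher in CCN2 KO IRI than in WT IRI (median −0.13), among them Pet100 (−0.97) and Uqcc2 (−0.74), which assist complexes IV and III, and Lrpprc (0.53), which stabilizes mitochondrial transcripts. Of 15 citric acid cycle genes 5 were higher (median 0.21), among them Ogdh (0.44) and Idh3a (0.30). Between the sham groups these 15 genes had a median of 0.18 in the same direction, and 0 passed. The difference between the responses had a median of 0.02 over them, and 0 passed. Of 10 carriers and regulators of ATP synthesis 2 were higher in CCN2 KO IRI than in WT IRI, the ADP/ATP carriers Slc25a5 (0.45) and Slc25a4 (0.36). In that comparison 2 were lower, the synthase inhibitor Atpif1 (−0.61) and the outer membrane channel Vdac3 (−0.32). Of 15 regulators of mitochondrial biogenesis 1 was lower, the deacetylase Sirt1 (−0.60). Of the 13 protein genes of the mitochondrial genome 9 were tested and none passed in any comparison, with medians of 0.15 in CCN2 KO IRI against WT IRI, 0.12 in WT IRI against WT sham and −0.02 in CCN2 KO IRI against CCN2 KO sham. None of the 9 reached an unadjusted p below 0.05 either. Levels of the 13 genes were uneven, with mt-Cytb from 14.3 to 15.8 and mt-Co1 from 13.6 to 14.8 on the log2 RPKM scale, while mt-Co2 stayed at or below 1.43 and mt-Atp8 at or below 0.37. Because the highest ranks of a quantile-normalized table share a small set of values, kidneys can hold the same printed value for different genes there.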

How the data were processed

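Poly(A) RNA from mouse kidney cortex was sequenced with directional, single-end libraries. Per the labels and the study's methods, the authors aligned reads with STAR 2.4.2a to GRCm38, counted them per gene with HTSeq 0.6.1p1, and made RPKM with edgeR. The deposited values are log2 RPKM after quantile normalization by the authors, with a floor at −3.32 (RPKM 0.1). The annotation and the strand setting of the counting are not given in the sources used here, and depth is unknown, so no counting interval was computed. Quantile normalization gives each sample the same set of values, so differences are relative to the other genes. Of 30 value columns 17 matched the labels, and 13 were not used. The study's own gene test used counts, which were not used here.

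Genes above log2 0 (RPKM 1) in at least 4 samples were kept (12608 of 38293). One limma 3.58.1 model (R 4.3.3) with 4 groups and a trended prior variance gave all 5 comparisons, with Benjamini-Hochberg adjustment over all kept genes and a threshold of 0.05. Single values were compared by exact permutation tests (scipy 1.17.1, Python 3.11.15). Replicates are separate samples by their labels. Lengths came from GENCODE M21 (12478 kept genes) and promoters from RefSeq. Named genes were the core subunits, the isoforms with their partners, the highest gene of each complex, up to 3 called genes per complex, direction and comparison, and up to 4 per other list. Other genes named in the report, such as Ndufa7, Ndufs3 and Atp5o, were chosen after their values were seen. Members and lists were chosen with earlier results of these data known. Some genes of these lists are not reported here. Scripts were tested on simulated data.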

Additional observations from a re-analysis of the deposited data

Results flagged for a closer look

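Of 84 groups of values tested, 5 held a kidney far from the others by Dixon's criterion, which chance gives in about 5% of groups. The mean of complex III in WT sham was 7.60 in 32A2, while the other 3 kidneys lay between 7.47 and 7.48. The mean of complex IV in CCN2 KO sham was 6.84 in 32B5, above all 3 others. Ndufv3 in WT IRI was 5.77 in 33C2 and 6.01 to 6.05 in the others. In CCN2 KO IRI kidney 33D3 was lowest for Atp5a1 (9.04, with the others from 9.25 to 9.33) and for Atp5k (4.26, with the others from 5.69 to 5.82).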

How the results depend on the processing

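The number of members called in CCN2 KO IRI against WT IRI (23) was 3 with no filter on low values, 14 after centring by gene length, 12 after centring by mRNA length, 36 within title prefix 33 and 38 with sample weights, and ran from 4 to 34 without 1 kidney. Lower and higher members were, in that order of settings, 3 and 0, 11 and 3, 4 and 8, 32 and 4, and 33 and 5. Of all genes tested 5.07% were lower in the main fit and, in the same order, 0.483%, 4.34%, 3.57%, 8.50% and 10.8%. Genes higher numbered 907 in the main fit and 288, 744, 677, 1472 and 1753. Without 1 kidney the share lower ran from 1.05% to 5.83%. In WT IRI against WT sham (22) it was 14 with no filter and 12 with the title prefix as a term, and ran from 12 to 22 without 1 kidney. In CCN2 KO IRI against CCN2 KO sham (54) it was 35 with no filter, 32 and 24 after centring by gene and mRNA length, 20 within prefix 33 and 31 with the prefix as a term, and ran from 36 to 54 without 1 kidney. Between sham groups and for the difference of responses the number of members called was 0 in every setting. Among called members the difference changed sign for Ndufa7 in CCN2 KO IRI against WT IRI after centring by mRNA length (0.0352), for Sdhd in WT IRI against WT sham after centring by gene length (0.0236), and for Cox6a1 (0.0332), Cox7a2l (0.0095), Ndufa8 (0.0150) and Atp5g3 (0.00214) in CCN2 KO IRI against CCN2 KO sham after centring by mRNA length. Over all 82 members, called or not, centring by mRNA length changed the sign in 22, 22 and 17 in the 3 comparisons, in the order above, and centring by gene length in 11, 18 and 9. With no filter more genes enter both the fit and the adjustment. The causes of the shifts between settings were not tested. Centring by mRNA length and the restriction to prefix 33 were chosen after seeing the data. No paired analysis was possible because the labels give no replicate number shared across groups.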
